A study of Mus musculus with 3 samples.

Results

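Of the 32285 genes counted in 3 single-cell RNA-Seq libraries of mouse lung leukocytes, 10 were followed across 6 immune lineages: Hmox1, Slc7a11, Gclm, Nqo1, Txnrd1, Srxn1, Prdx1, Gpx4, Ftl1 and Fth1. They form a list of named genes of antioxidant defense and iron storage. The list has no threshold on a measured value, but it was drawn up with earlier results of these data known. Levels are given as CPM, that is, the unique molecular identifiers (UMIs) of a gene summed over the cells of a lineage, per 1000000 gene UMIs of those cells. Each CPM is given with its exact Poisson 95% interval where one is printed, which covers counting error only.

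The libraries came from naive C57BL/6J left lungs without surgery and from left lung grafts 2 hours or 3 days after reperfusion. Grafts were taken from B6 donors carrying CD45.2, kept for 60 minutes at 4°C and a further 45 minutes at 28°C, and transplanted into B6 recipients carrying CD45.1. The labels give C57BL/6J for all 3 libraries, while the CD45.1 strain among the study's mice is the congenic B6.SJL-Ptprca Pepcb/BoyJ. Cells of 2 mice were pooled per library and sorted for CD45.1, which marks recipient leukocytes in a graft. An endothelial cluster of 92 naive, 49 2-hour and 297 3-day cells was nevertheless present and is not among the 6 lineages. A CD45.1 sort is also listed for naive lungs, though those mice are labelled only as C57BL/6J. Each condition had 1 library, so no difference below has a replicate check and no p-value is given.

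When heme is released from damaged tissue or red cells, HMOX1 opens the heme ring and frees iron, which ferritin stores in a shell of FTL1 and FTH1 chains. SLC7A11 imports cystine, GCLM assists the first step of glutathione synthesis, and TXNRD1, SRXN1, PRDX1 and GPX4 reduce peroxides or keep the enzymes that do so active. Many of these genes respond to the transcription factor NRF2, and ferritin is also controlled through translation by iron regulatory proteins, which RNA counts do not show.

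The genes lie on 7 chromosomes of the mouse genome (GRCm38): Hmox1 at chr8:75093621-75100589 and Nqo1 at chr8:107388225-107403206, Slc7a11 at chr3:49892526-50443614 and Gclm at chr3:122245557-122270732, Srxn1 at chr2:152105516-152111376, Prdx1 at chr4:116685544-116700822, Ftl1 at chr7:45457944-45459884, Gpx4 at chr10:80047166-80056439, Txnrd1 at chr10:82833951-82897712 and Fth1 at chr19:9980598-9985098. Ftl1 and Fth1 are compact, with 0.6 and 1.03 kb of intron, whereas Slc7a11 spans 537.17 kb of intron. Promoter windows from RefSeq (GRCm38.p6), from 250 bases before to 50 after a transcript start, were found for 9 of the 10 genes. They were searched on both strands for TGACNNNGC, a core form of the antioxidant response element that NRF2 binds. Other forms of this element were not searched. A match was present for Gclm, Srxn1, Txnrd1 and Prdx1, that is 4 of 9 genes, beside 14% of the 27025 genes in the same table. Some genes have several windows. By window, a match was present in 4 of 15 for these 9 genes, beside 12.4% of all 32851. The Srxn1 match began 28 bases after its start. The windows of Slc7a11, Nqo1, Gpx4, Ftl1 and Fth1 held no match, which says only that these letters are not in those windows. The 250 bases before the start are shown for the 3 genes with an upstream match and for both ferritin genes, whose levels lead the account below. Capitals mark the match.
Prdx1 (chr4:116685349-116685598, plus strand): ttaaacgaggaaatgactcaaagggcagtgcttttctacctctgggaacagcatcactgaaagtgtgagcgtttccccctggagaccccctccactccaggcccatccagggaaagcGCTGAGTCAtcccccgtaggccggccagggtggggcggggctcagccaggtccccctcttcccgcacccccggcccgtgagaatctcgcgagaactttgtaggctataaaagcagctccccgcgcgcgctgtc
Gclm (chr3:122245307-122245556, plus strand): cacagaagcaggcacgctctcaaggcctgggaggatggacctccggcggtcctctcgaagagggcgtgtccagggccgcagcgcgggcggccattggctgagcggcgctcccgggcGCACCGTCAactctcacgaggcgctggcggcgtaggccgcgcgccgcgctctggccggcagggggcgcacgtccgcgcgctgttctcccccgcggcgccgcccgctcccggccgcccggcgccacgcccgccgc
Txnrd1, the second of 3 listed starts (chr10:82858956-82859205, plus strand): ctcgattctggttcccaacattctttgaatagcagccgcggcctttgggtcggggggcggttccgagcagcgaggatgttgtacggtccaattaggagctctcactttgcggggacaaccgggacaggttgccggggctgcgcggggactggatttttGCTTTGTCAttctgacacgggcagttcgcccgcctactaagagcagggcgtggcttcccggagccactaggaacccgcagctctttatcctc
Ftl1 (chr7:45459887-45460136, minus strand): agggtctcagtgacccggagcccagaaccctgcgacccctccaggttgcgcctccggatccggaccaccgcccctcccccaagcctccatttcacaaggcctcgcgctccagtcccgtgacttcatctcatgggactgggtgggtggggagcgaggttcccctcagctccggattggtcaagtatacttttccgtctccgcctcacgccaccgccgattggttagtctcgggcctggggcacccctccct
Fth1, the second of 2 listed starts (chr19:9982396-9982645, plus strand): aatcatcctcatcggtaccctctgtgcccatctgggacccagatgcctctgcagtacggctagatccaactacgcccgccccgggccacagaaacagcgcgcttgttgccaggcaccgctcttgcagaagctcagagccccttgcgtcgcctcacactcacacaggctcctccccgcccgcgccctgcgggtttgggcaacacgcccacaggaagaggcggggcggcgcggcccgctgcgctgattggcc

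Quality filters kept 2422 of 2921 naive cells, 10283 of 10328 cells at 2 hours and 8324 of 9016 at 3 days. The 2-hour library was shallow, with a median of 878 UMIs per kept cell against 7299 in naive and 5717 at 3 days. Clusters named by marker genes gave 388, 4024 and 2259 neutrophils in the naive, 2-hour and 3-day libraries, and 141, 452 and 1222 monocytes. B cells numbered 555, 1418 and 1904, T cells 576, 2475 and 709, and NK cells 516, 1051 and 326. Macrophages numbered 107 in naive, 5 at 2 hours and 799 at 3 days, so no macrophage value is given at 2 hours. The cells behind a lineage name changed between libraries. Naive macrophages were 102 cells of an alveolar cluster plus 5 others, whereas 3-day macrophages were 633 cells of a cluster with Arg1 and Saa3 and 166 of a C1q cluster. Naive monocytes were mainly a nonclassical cluster of 137 cells whose top genes also held Vcan and F13a1, those at 2 hours a cluster of 450 cells named classical but led by Ace, and those at 3 days a classical cluster of 769 and a nonclassical one of 434. The neutrophil markers S100a8, S100a9 and Retnlg together stood at 109620 CPM in naive neutrophils, 48554 at 2 hours and 145161 at 3 days. Between libraries 8, 1 and 23 cell barcodes were shared (naive and 2 hours, naive and 3 days, 2 hours and 3 days). Naive was processed with Cell Ranger 7.1.0 and both grafts with 6.0.0, and this difference cannot be told apart from the condition where naive is compared.

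Both ferritin genes were at their highest at 2 hours in each of the 5 lineages measured at all 3 times. In neutrophils Fth1, the iron-oxidizing heavy chain, stood at 7150 CPM in naive (95% interval 7040 to 7262), 41573 at 2 hours (41359 to 41787) and 11794 at 3 days (11729 to 11859). Ftl1, the light chain, was measured in the same cells at 2813, 7652 and 3686 CPM. Fth1 alone made up 4.16% of all neutrophil UMIs at 2 hours, and the level 3 days after reperfusion lay between those of naive and 2 hours for both chains.
In monocytes Fth1 was at 3231, 14021 and 5502 CPM and Ftl1 at 2884, 8404 and 3324 CPM in naive, at 2 hours and at 3 days. In B cells Fth1 was at 1871, 5512 and 2978 CPM and Ftl1 at 512, 2028 and 722 CPM. Both patterns had the same order as in neutrophils. T cells held Fth1 at 1072, 3054 and 1434 CPM and Ftl1 at 516, 1705 and 716 CPM. NK cells held Fth1 at 981, 3854 and 1867 CPM and Ftl1 at 476, 1668 and 729 CPM. The order naive, 3 days, 2 hours from low to high held for both genes in all 5 lineages, and no 2 of the 3 Poisson intervals overlapped within a lineage.

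Fth1 was higher at 2 hours than in naive by 5.81-fold in neutrophils (exact conditional 95% interval 5.72 to 5.91), 4.34-fold in monocytes, 3.93-fold in NK cells, 2.95-fold in B cells and 2.85-fold in T cells. Ftl1 was 3.96-fold higher at 2 hours in B cells, 3.50-fold in NK cells, 3.31-fold in T cells, 2.91-fold in monocytes and 2.72-fold in neutrophils. The largest ratio therefore belonged to neutrophils for the heavy chain and to B cells for the light chain. From 2 hours to 3 days Fth1 was 3.52-fold lower in neutrophils, 2.55-fold in monocytes, 2.13-fold in T cells, 2.06-fold in NK cells and 1.85-fold in B cells. Ftl1 was 2.08-fold lower in neutrophils and 2.29-fold to 2.81-fold lower in the other 4 lineages.

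**Figure D1:**
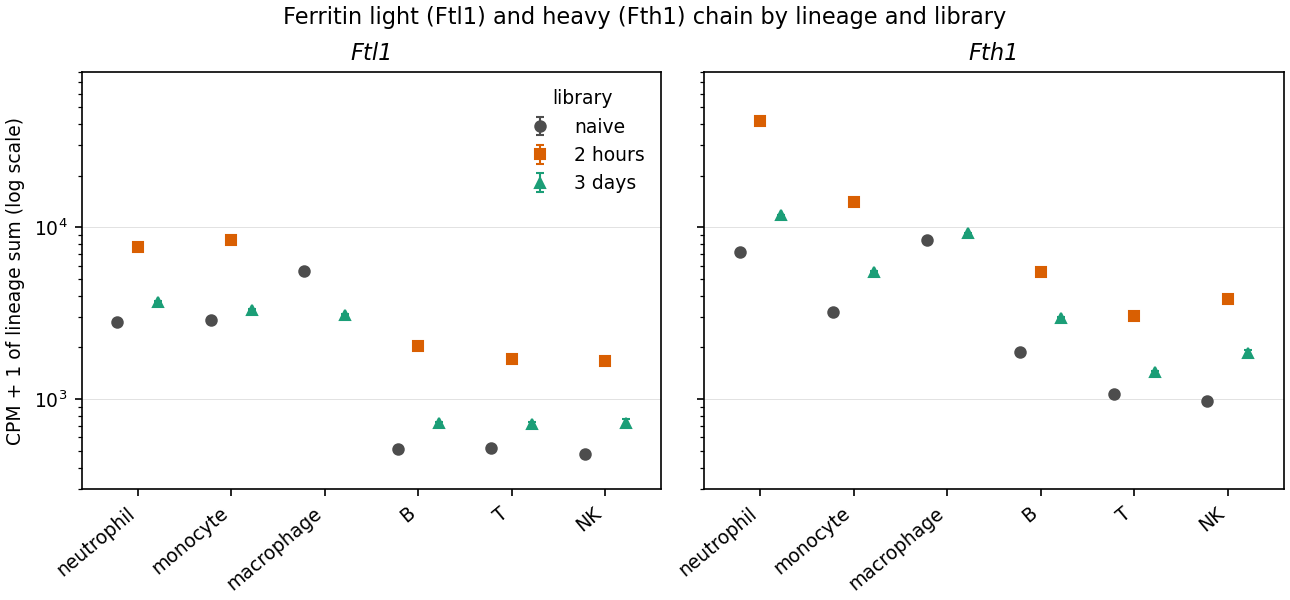
Levels of Ftl1 (left) and Fth1 (right) as CPM + 1 on a log axis, by lineage, in the naive (circles), 2-hour (squares) and 3-day (triangles) libraries, with exact Poisson 95% intervals that are mostly smaller than the symbols. The 2-hour squares are highest in the 5 lineages with all 3 values, from 1668 CPM of Ftl1 in NK cells to 41573 CPM of Fth1 in neutrophils.

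The share of heavy chain among ferritin UMIs also differed between libraries. Of the ferritin UMIs of neutrophils, Fth1 made up 71.8% in naive (exact binomial 95% interval 71.2 to 72.4), 84.5% at 2 hours (84.3 to 84.6) and 76.2% at 3 days (76.0 to 76.4). Monocytes, whose clusters differed between libraries, had 52.8% in naive, 62.5% at 2 hours and 62.3% at 3 days. In nonclassical monocytes Fth1 and Ftl1 were at 3225 and 2888 CPM in naive and at 3753 and 3178 CPM at 3 days. Classical monocytes at 3 days had 5943 and 3365 CPM. The part of this mix of clusters in the monocyte difference was not tested. B cells had their lowest share at 2 hours, with 78.5%, 73.1% and 80.5%, as did T cells with 67.5%, 64.2% and 66.7%. NK cells had their lowest share in naive, with 67.3%, 69.8% and 71.9%. In macrophages, where the clusters differed, Fth1 made up 60.3% in naive and 74.9% at 3 days, with Ftl1 at 5560 and 3099 CPM and Fth1 at 8436 and 9245 CPM. The related feature Ftl1-ps1, a processed copy of the light chain gene, was at 102, 198 and 119 CPM in neutrophils, and reads of such near-identical copies can be split between them.

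When every cell was thinned to 500 UMIs, leaving out shallower cells, Fth1 was seen in 83.0% of naive neutrophils, 99.3% at 2 hours and 91.6% at 3 days. In B cells the shares were 52.3%, 85.5% and 71.2%, and for Ftl1 18.6%, 55.8% and 26.5%. The order of the libraries was thus the same for the share of cells as for the CPM. The neutrophils at 2 hours formed 2 clusters that differed in ferritin: 2925 cells whose top genes held Cxcl3 and Il1rn, and first among them the club cell gene Scgb1a1, had 45260 CPM of Fth1, and 1097 cells led by the granule genes Ngp and Camp had 32315 CPM. An unnamed cluster of 367 cells at 2 hours led by Ccl4, Ccl3 and Cxcl3 had 50198 CPM of Fth1 and 7203 CPM of Ftl1, and 2646 CPM of Slc7a11.

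Slc7a11, which exchanges glutamate for cystine, was highest in neutrophils among the named lineages of all 3 libraries. It stood at 1903 CPM in naive neutrophils (95% interval 1846 to 1961), 2010 at 2 hours and 1324 at 3 days. Neutrophils made up 16% of kept naive cells, 39.1% of those at 2 hours and 27.1% at 3 days. Of the Slc7a11 UMIs of these cells they held 92.4%, 79.7% and 66.7%. The unnamed 2-hour cluster led by Ccl4, Ccl3 and Cxcl3, nearest to neutrophils by its markers, is not counted in the 79.7%. It held 943 of the 8827 Slc7a11 UMIs at 2 hours. At 3 days macrophages held 17.7% of the Slc7a11 UMIs. An unnamed 3-day cluster of 149 cells, whose top genes held Tnf, Ccl3 and Siglecf, had 1236 CPM, from 825 of the 21461 UMIs. At 500 UMIs per cell Slc7a11 was seen in 53.1%, 56.3% and 45.5% of neutrophils and in 0%, 1.77% and 1.63% of B cells. In neutrophils Slc7a11 was 1.06-fold higher at 2 hours than in naive (1.02 to 1.10) and 1.52-fold lower at 3 days than at 2 hours.

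Outside neutrophils Slc7a11 was higher at 2 hours than in naive. Monocytes had 78.5 CPM in naive, 534 at 2 hours and 84.8 at 3 days. Their 2-hour value was 6.80-fold that in naive (5.59 to 8.31) and 6.29-fold that at 3 days. The monocyte clusters differed between libraries, and their part in these differences was not tested. At 3 days the classical cluster had 82.9 CPM and the nonclassical one 89.6. B cells had 0.57, 77.1 and 42.2 CPM, T cells 15.3, 59.9 and 21.0 CPM and NK cells 3.98, 67.4 and 68.9 CPM. The naive B cell value rests on 2 UMIs. Without the 49 of 1904 3-day B cells that clustered with 2-hour B cells, the 3-day B cell value was 24.7 CPM. Without the 10 of 326 3-day NK cells that clustered with 2-hour NK cells, the 3-day NK cell value was 62.3 CPM. Neutrophil marker RNA was also counted in monocytes, B, T and NK cells. The neutrophil genes S100a8, S100a9 and Retnlg stood in B cells at 10.7% of their level in the whole 2-hour library, in T cells at 8.03% and in NK cells at 8.38%. Multiplied by the library-wide Slc7a11 level of 823 CPM, these shares give a product of 88.1 CPM in B cells, 66.1 in T cells and 69.0 in NK cells, beside the measured 77.1, 59.9 and 67.4 CPM. In monocytes the same share was 28.8%, which gives 237 CPM of Slc7a11 beside the measured 534. The same product for Fth1 gives 2004, 1503 and 1567 CPM in B, T and NK cells, below the measured 5512, 3054 and 3854, and for Ftl1 486, 365 and 380 CPM, below the measured 2028, 1705 and 1668.

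**Figure D2:**
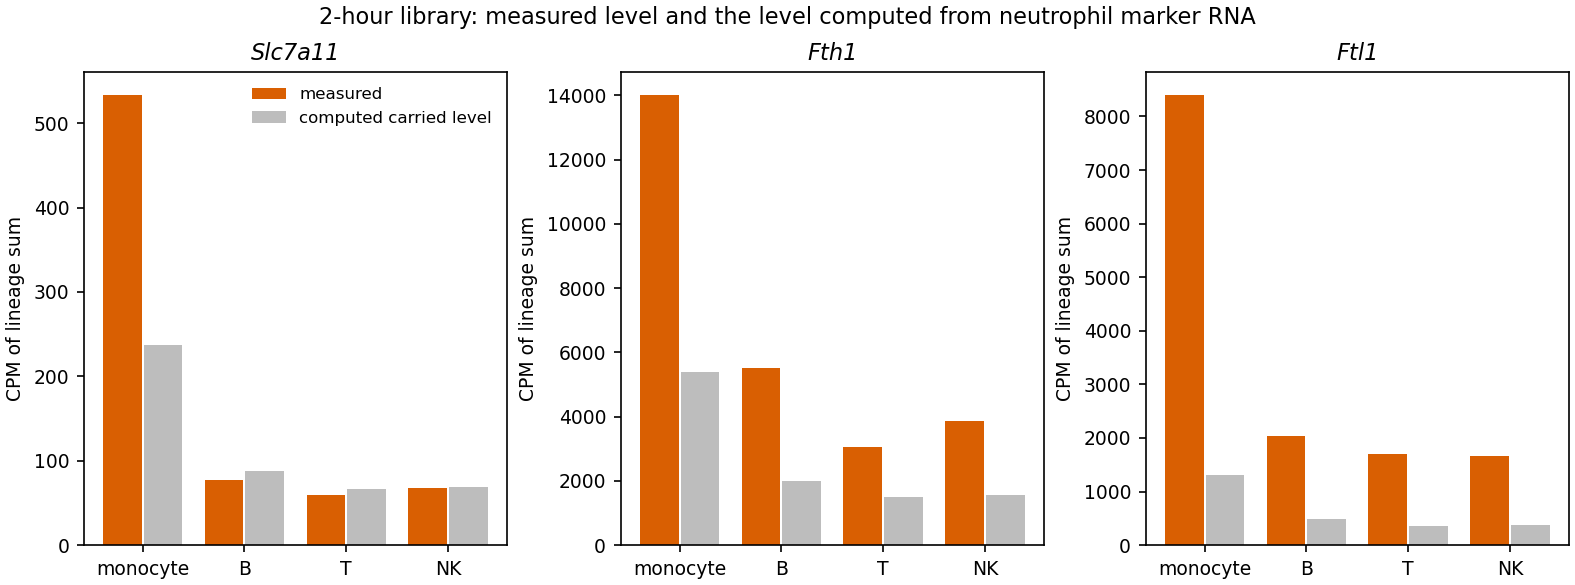
Bars give the measured CPM (orange) of Slc7a11, Fth1 and Ftl1 in 4 lineages of the 2-hour library and the level computed from the share of neutrophil marker RNA times the library-wide CPM (grey), each panel on its own axis from 0. Measured Slc7a11 lies at or under the computed level in B, T and NK cells (77.1 against 88.1 CPM in B cells) and above it in monocytes, and both ferritin genes lie above it in all 4.

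Slc7a11 was also found in macrophages. Naive macrophages had 40.9 CPM and 3-day macrophages 408 CPM, 9.97-fold more (8.02 to 12.5). The 3-day clusters differed from each other, with 510 CPM in the Arg1 and Saa3 cluster and 150 CPM in the C1q cluster. These 3 neutrophil markers summed to 109 CPM in naive and 1221 CPM in 3-day macrophages, and their part in this difference was not tested.

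Hmox1, the heme-degrading enzyme, was highest in macrophages in both libraries that held enough of them, naive and 3 days. It stood at 824 CPM in naive macrophages (95% interval 785 to 864) and 717 at 3 days (699 to 734), followed by monocytes with 214 CPM in naive, 154 at 2 hours and 97.6 at 3 days. Neutrophils came next with 31.2, 56.3 and 81.7 CPM. The 107 naive macrophages, 4.42% of the library's kept cells, held 76.2% of the Hmox1 UMIs of all its kept cells. The 3-day macrophages held 66.2%. By calls of single cells, 111 of 275 naive and 561 of 603 3-day macrophages passed the upper cell limits. The 2 libraries thus lost unlike parts of their macrophages before these Hmox1 shares were taken. Monocytes and neutrophils had opposite orders over the 3 libraries: in monocytes it was 1.39-fold lower at 2 hours than in naive and 1.58-fold lower again at 3 days, and in neutrophils 1.81-fold and 1.45-fold higher. Between naive and 3 days it was 2.20-fold lower in monocytes (1.96 to 2.46) and 2.62-fold higher in neutrophils (2.05 to 3.40). The macrophage markers C1qa, Mrc1 and Arg1 together were at 5.79 CPM in naive neutrophils, 1.14 at 2 hours and 47.97 at 3 days. The part of macrophage RNA in the neutrophil differences was not tested, nor was that of the unlike monocyte clusters in the monocyte differences. At 500 UMIs per cell Hmox1 was seen in 19.6% of naive and 25.3% of 3-day macrophages, against at most 0.735% of B cells in any library. Without thinning the macrophage shares were 83.2% and 84.7%, at median depths of 19866 and 10945 UMIs.

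Within the 3-day macrophages, Hmox1 was at 899 CPM in the Arg1 and Saa3 cluster and 256 CPM in the C1q cluster, while the naive alveolar cluster had 831. A 2-hour cluster led by heat shock genes, left unnamed, had 161 CPM of Hmox1, and its 86 cells at 3 days had 382 CPM. Lymphocytes had little: B cells 3.71, 3.11 and 14.5 CPM, T cells 4.13, 6.83 and 12.5 CPM and NK cells 3.51, 15.7 and 36.5 CPM. The 2-hour values in B and T cells rest on 4 and 21 UMIs. The product of neutrophil marker share and library-wide Hmox1 level was 23.6 CPM in 3-day NK cells and 10.2 CPM in 3-day B cells. Without the 10 of 326 3-day NK cells that clustered with 2-hour NK cells, Hmox1 was at 18.8 CPM, from 36 UMIs. Without the 49 of 1904 3-day B cells that clustered with 2-hour B cells, it was at 11.3 CPM.

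Among all 6439 genes with at least 50 CPM in any of the 17 lineage and library sums, those whose log2(CPM + 10) was most like Hmox1 were Surf4, a cargo receptor of the secretory pathway (Pearson r = 0.946), the lysosomal protein gene Grn (0.945) and the lysosomal phosphatase gene Acp2 (0.945). For Fth1 they were the immediate-early gene Egr1 (0.948), the neutrophil chemokine gene Cxcl2 (0.937) and the receptor gene Lilr4b (0.937). Cxcl2 in neutrophils was at 2215, 18828 and 3451 CPM in naive, at 2 hours and at 3 days. The 17 sums share libraries and depths, so these coefficients are descriptions.

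In neutrophils Gclm and Nqo1 did not have the order of ferritin over the 3 libraries. Gclm, the modifier subunit of glutamate-cysteine ligase, stood at 12.9 CPM in naive neutrophils, 14.3 at 2 hours and 35.3 at 3 days, the last 2.47-fold over 2 hours (1.84 to 3.39). Macrophages had 61.6 CPM in naive and 68.8 at 3 days, and the other lineages lay between 14.7 and 31.1 CPM at all times. Nqo1, a quinone reductase often used to read NRF2 activity, was near the floor. Its highest sum was 4.62 CPM in 3-day neutrophils, from 50 UMIs, and it was not detected in B cells of the naive library or at 2 hours, in monocytes at 2 hours, or in NK cells at 2 hours or 3 days. In 2-hour NK cells 3 counts, taken as the limit that a count of 0 allows, would be 2.77 CPM, and the upper bound of the exact Poisson interval was 3.41 CPM.

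Txnrd1, the reductase that recharges thioredoxin, was at 208 CPM in naive neutrophils (95% interval 189 to 228), 401 at 2 hours (381 to 423) and 303 at 3 days (292 to 313). Neutrophils and macrophages, at 251 CPM in naive and 397 at 3 days, had the most. Monocytes had 111, 151 and 118 CPM, NK cells 72.8, 57.3 and 115 CPM and B cells 19.97, 39.7 and 42.4 CPM. Srxn1, which repairs overoxidized peroxiredoxins, ran in the opposite direction in neutrophils, with 98.4 CPM in naive, 39.4 at 2 hours and 91.8 at 3 days. It was thus 2.49-fold lower at 2 hours than in naive (2.01 to 3.11) and 2.33-fold higher at 3 days than at 2 hours (1.95 to 2.80). In log2 of CPM + 10 the second difference was 1.04, and it was 0.67 to 0.99 in 4 of 15 alternatives. Macrophages had 108 CPM in naive and 152 at 3 days, and B and T cells at most 7.28 CPM.

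Prdx1, a peroxide-removing peroxiredoxin, was lowest in neutrophils, at 18.7 CPM in naive, 24.6 at 2 hours and 84.5 at 3 days. The 3-day value was 3.44-fold that at 2 hours (2.75 to 4.34). Its log2 ratio of CPM + 10, 1.45, was under 2-fold in 4 of 15 alternatives: 0.45 and 0.56 with single cells called by markers, with and without upper cell limits, 0.61 with the members left out of the clustering and 0.85 with CPM + 50. The macrophage markers C1qa, Mrc1 and Arg1 together were at 1.14 CPM in 2-hour and 47.97 CPM in 3-day neutrophils, and their part in this difference was not tested. Without the 18 of 2259 cells that clustered with the 2-hour neutrophils it was 66.9 CPM. Macrophages had 1194 CPM in naive and 1068 at 3 days, with 1258 CPM in the Arg1 and Saa3 cluster and 587 in the C1q cluster. Monocytes had 404, 585 and 487 CPM. In B, T and NK cells Prdx1 was 1.73-fold, 1.86-fold and 1.86-fold higher at 2 hours than in naive. Gpx4, which reduces lipid peroxides in membranes, was the most even of the 10. All 17 of its sums lay between 118 CPM in naive B cells and 446 CPM in 3-day macrophages. In neutrophils it was at 262, 222 and 216 CPM. In monocytes, B, T and NK cells both Prdx1 and Gpx4 had the order of ferritin, with each 2-hour to naive ratio under 2-fold. Gpx4 was at 246, 351 and 293 CPM in monocytes and 118, 197 and 155 CPM in B cells. T cells had 133, 212 and 155 CPM of it, and NK cells 242.5, 311 and 280 CPM.

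**Figure D3:**
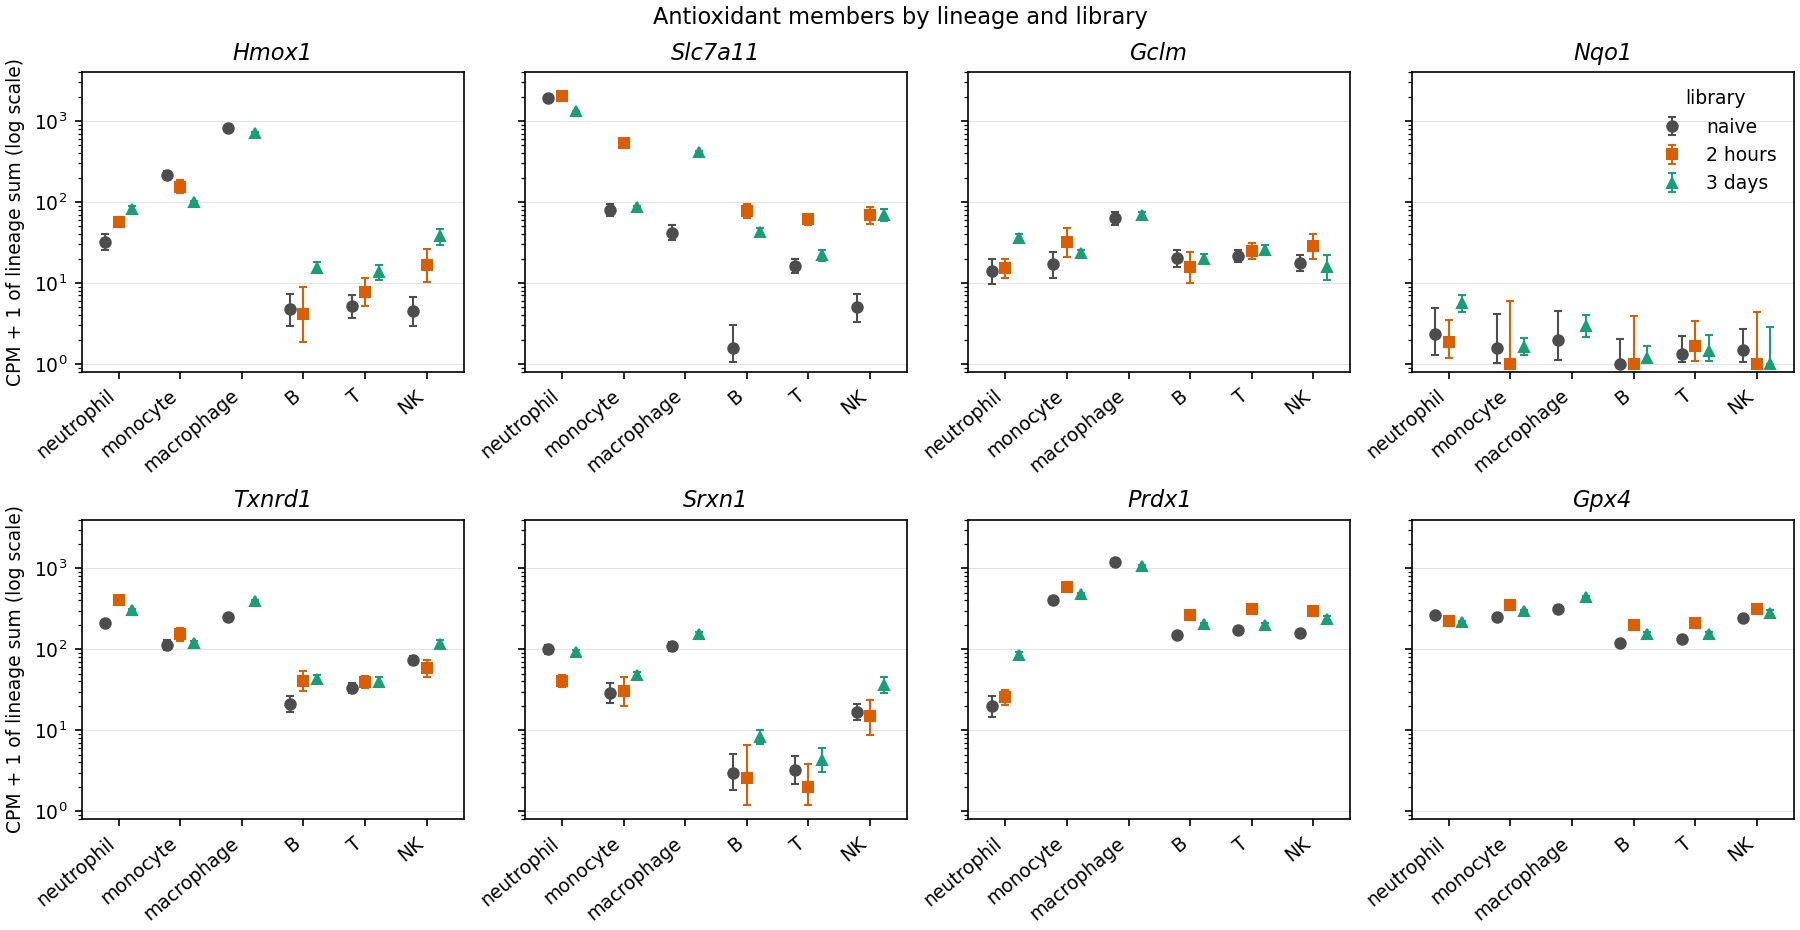
Levels of the 8 antioxidant genes as CPM + 1 on a log axis, by lineage and library, with exact Poisson 95% intervals (circles naive, squares 2 hours, triangles 3 days). Hmox1 is highest in macrophages (824 CPM in naive), Slc7a11 in neutrophils (2010 CPM at 2 hours), Prdx1 lowest in neutrophils, and Nqo1 at or under 4.62 CPM throughout.

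To set these values against the other genes, a gene was called past the fold in a lineage where CPM + 10 differed at least 2-fold and both libraries together held at least 20 UMIs. From naive to 2 hours, 14 of 42 member and lineage pairs were higher at 2 hours by this rule, that is 33.3%, beside 4.37% of all genes counted in the same 5 lineages. They were Ftl1 and Fth1 in all 5 and Slc7a11 in monocytes, B, T and NK cells. Of the 42 pairs 1 was lower at 2 hours, Srxn1 in neutrophils, that is 2.38% beside 16.0% of all genes. From 2 hours to 3 days 11 of 46 pairs were lower at 3 days (23.9%), beside 3.23% of all genes: Ftl1 in all 5 lineages, Fth1 in all but B cells, and Slc7a11 in monocytes and T cells. Only Srxn1 and Prdx1 in neutrophils, 2 of 46 pairs or 4.35%, were higher at 3 days, beside 3.86% of all genes, so this share was near the background. The 2-hour library enters both comparisons, so they are not independent. The shares of all genes were not matched to the members by level, and the members were chosen with earlier results of these data known. A carried level was also subtracted. In B, T and NK cells it was the product of neutrophil marker share and library level. In neutrophils the share was that of the B cell genes Cd79a, Cd79b and Ms4a1, so neutrophil RNA was not subtracted there. Monocytes were computed in both ways, with B cell genes and with neutrophil genes. The calls at 2 hours against naive were lost for Slc7a11 in B, T and NK cells and for Fth1 in B and T cells. Ftl1 kept its call in all 5 lineages, as did Fth1 in neutrophils, monocytes and NK cells.

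**Figure D4:**
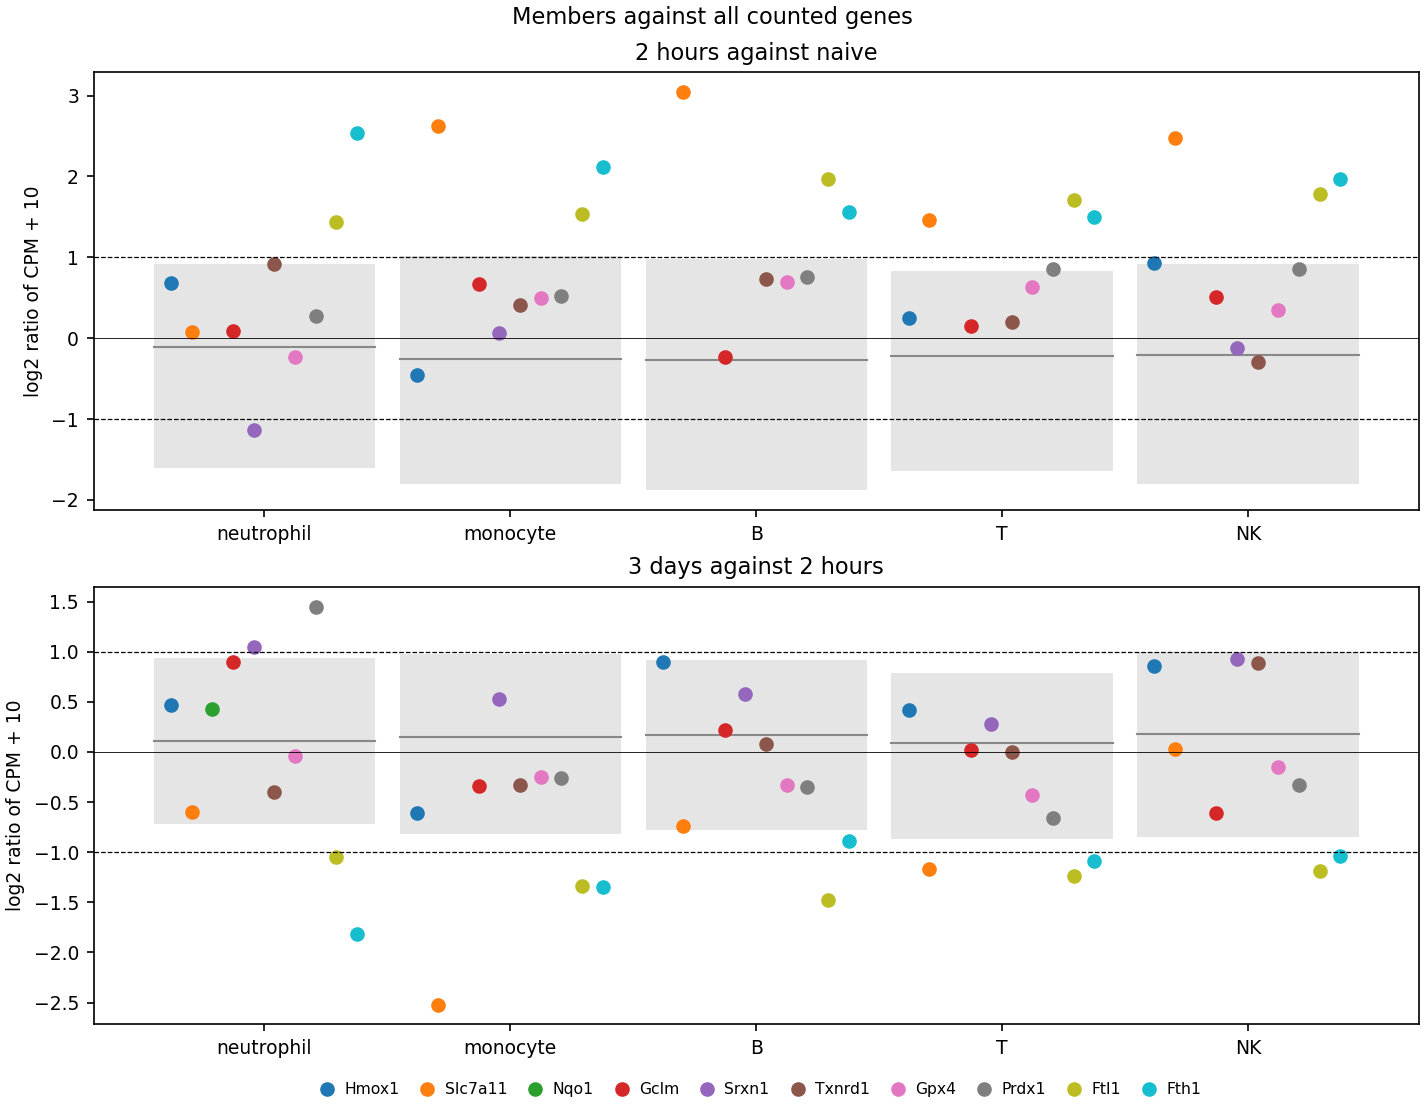
Log2 ratios of CPM + 10 of the members that had enough UMIs, by lineage, for 2 hours against naive (top) and 3 days against 2 hours (bottom). Grey bands run from the 5th to the 95th percentile of all genes counted, with the median as a line, and dashed lines mark 2-fold. Ftl1 and Fth1 lie above the band in all 5 lineages at the top (Fth1 at 2.54 in neutrophils) and below it in all 5 at the bottom.

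The comparison with naive also moved with intron length. At 2 hours, genes with under 5 kb of intron had a median log2 ratio to naive of 0.16 to 0.27 across the 5 lineages, and genes with at least 50 kb a median of -1.07 to -0.64. Ftl1 and Fth1 belong to the short class, in which 8.05% to 12.7% of genes were at least 2-fold higher at 2 hours. Their own log2 ratios were 1.44 to 2.54. Slc7a11 belongs to the long class, in which 0.853% to 1.66% of genes were at least 2-fold higher. Between 3 days and 2 hours, whose files carry the same Cell Ranger version, the medians of the short class were -0.02 to 0.11 and those of the long class 0.10 to 0.37.

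**Figure D5:**
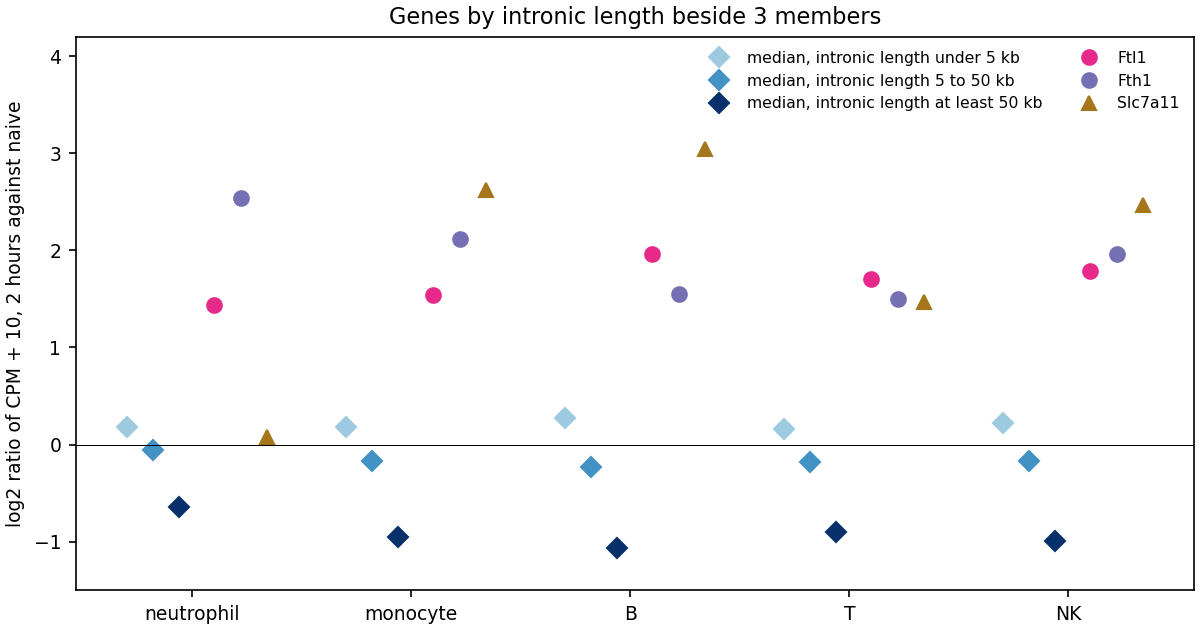
Median log2 ratio of CPM + 10, 2 hours against naive, of genes in 3 classes of intronic length (blue diamonds), with Ftl1, Fth1 and Slc7a11 beside them, by lineage. The medians fall from the short to the long class in each lineage, and Ftl1 and Fth1, of the short class, lie at 1.44 or more.

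Genes of the same pathways outside the 10, in 5 lists of 78 genes, are given from 2 hours to 3 days first, where 3.86% of all gene and lineage pairs were past the fold upwards and 3.23% downwards. Of the antioxidant enzymes, 2 of 91 counted pairs (2.2%) were higher at 3 days than at 2 hours and 0 were lower. Both were in neutrophils, Gpx1 and Txn1, and Txn1, the thioredoxin that TXNRD1 recharges, stood at 1343 CPM in naive, 478 at 2 hours and 2033 at 3 days. In the list of glutathione and NADPH supply, 6 of 62 pairs (9.68%) were higher and 4 (6.45%) lower at 3 days. The higher neutrophil pairs were the pentose phosphate genes G6pdx, Pgd and Tkt, with Pgd at 204, 85.5 and 333 CPM. The higher monocyte pairs were Gstm1, G6pdx and Tkt, with G6pdx at 92.7, 41.9 and 105.8 CPM and Tkt at 323.6, 194.5 and 401.5 CPM. Gstp1, a glutathione transferase, accounted for all 4 lower pairs, from 31.1 CPM at 2 hours to 5.38 at 3 days in monocytes and from 38.8 to 3.04 in NK cells.
In the list of NRF2 and its regulators, 2 of 55 pairs (3.64%) were higher at 3 days and 0 lower: Osgin1 in neutrophils, at 119, 89.5 and 193 CPM, and Nfe2l1 in B cells, at 52.2, 31.1 and 73.5 CPM. Nfe2l2, which encodes NRF2, was at 637, 924 and 515 CPM in monocytes, where its ratio of CPM + 10 was the largest of its list and under 2-fold. Of heme and iron handling genes, 5 of 101 pairs (4.95%) were higher and 3 (2.97%) lower at 3 days. The higher pairs were Steap4 in neutrophils and NK cells, Lrp1 in T and NK cells and Hfe in T cells. At 3 days Hfe was at 20.3 CPM in T cells and 145 CPM in monocytes, and Steap4 at 12.15 CPM in NK cells. The part of RNA from other lineages in the T and NK cell pairs was not tested. Steap4, a metalloreductase, was at 49.9, 14.6 and 334 CPM in neutrophils, 22.9-fold higher at 3 days than at 2 hours (17.4 to 30.9). Slc40a1, the iron exporter, was at 0, 18.9 and 3.53 CPM in monocytes, the 2-hour value from 14 UMIs. Neutrophils of that library held 192 CPM of Slc40a1, and the neutrophil marker share in its monocytes was 28.8%. The part of this RNA in the monocyte value was not tested. Lrp1, which takes up heme bound to hemopexin, was at 0.98 CPM at 2 hours, from 3 UMIs, and 28.0 at 3 days in T cells, a ratio of 28.7 (9.68 to 140). The 3 macrophage markers were at 1.3 CPM in 2-hour and 33.84 CPM in 3-day T cells, Lrp1 itself was at 369 CPM in 3-day macrophages and 460 in 3-day monocytes, and the part of such RNA in the T cell ratio was not tested. Of lipid peroxidation genes, 0 of 36 pairs were higher and 2 (5.56%) lower at 3 days, both Acsl4, at 134, 72.6 and 24.3 CPM in neutrophils and 81.3, 120 and 40.3 CPM in monocytes. The median log2 ratios of the 5 lists from 2 hours to 3 days in neutrophils were 0.09 to 0.23, beside 0.11 for all genes counted and 0.20 for the 10 members. In the other 4 lineages the members had medians of -0.34 in monocytes, -0.33 in B cells, -0.43 in T cells and -0.15 in NK cells, below the 0.09 to 0.18 of all genes counted.
From naive to 2 hours, where 4.37% of all pairs were higher and 16.0% lower, 7 of 87 antioxidant enzyme pairs (8.05%) were higher and 9 (10.3%) lower. Sod2, the mitochondrial superoxide dismutase, was higher in neutrophils, from 162 to 354 CPM, in monocytes, from 128 to 274 CPM, and in B cells, from 52.2 to 115 CPM. Sod1 was higher in B cells, from 50.5 to 111 CPM, in T cells, from 75.0 to 182.5 CPM, and in NK cells, from 72.3 to 198 CPM. The remaining higher pair was Msrb1 in NK cells, from 33 to 78.5 CPM, beside 1252 CPM in 2-hour neutrophils. In neutrophils Txn1 and Gpx1 were among those lower at 2 hours. Of the glutathione and NADPH list 1 of 59 pairs was higher and 3 lower, of NRF2 and its regulators 1 of 55 each way, of heme and iron handling 6 of 85 higher and 2 lower, and of lipid peroxidation 0 of 32 higher and 3 lower. The higher heme and iron pairs were Fbxl5 in neutrophils, Slc11a1 in NK cells and Lcn2 in monocytes, B, T and NK cells. At 2 hours Lcn2 was at 104, 36.6, 30.25 and 30.5 CPM in these, in that order, beside 1341 CPM in neutrophils. The part of neutrophil RNA in the pairs outside neutrophils was not tested. The members had medians of 0.27 to 0.85 in the 5 lineages, beside -0.27 to -0.11 for all genes counted.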

How the data were processed

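The 3 single-cell libraries, 1 per condition with cells of 2 pooled mice each, were analysed. The deposited values were unnormalized UMI counts per gene and cell, aligned by the authors to mm10 with Cell Ranger, whose version the file headers give as 7.1.0 (naive) and 6.0.0 (grafts). The labels list 5′ and 3′ kits for every library and the paper's methods a 3′ kit. The intron setting is not given in the sources consulted. The labels also name Seurat 4.

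A cell was kept if it had over 200 genes but not 6000, less than 25000 UMIs, and a mitochondrial share below 10%. Counts were normalized with sctransform 0.4.2 in Seurat 5.3.0 (R 4.3.3), with 30 principal components and Louvain clustering at resolution 0.8. Of the 10 members 8 were among the variable genes. A cluster took a name where the median log2 ratio of its markers and at least 3 markers exceeded 1. It stayed unnamed where its top 10 genes held more markers of a different cell type than of its own. In the alternatives only the marker criterion applied. Scrublet (scanpy 1.11.5) called 40, 403 and 277 doublets, removed only in an alternative. The upper cell limits removed macrophages: by calls of single cells, 111 of 275 naive and 561 of 603 3-day macrophages passed them.

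UMIs were summed per lineage and library where at least 50 cells were present. Ratios of CPM carry exact conditional 95% intervals, and calls used CPM + 10. These intervals cover counting error only, and with 1 library per condition no p-value was computed. The ratio steps were tested on simulated data. Intron lengths came from GENCODE vM21, in which 32235 of 32285 gene identifiers were found. The genes and lists, and the rule for named genes (all 10 members, per list and lineage the gene with the largest 3-day to 2-hour ratio, and the 3 genes most like Hmox1 and Fth1), were chosen with earlier results of these data known. Other genes named, such as Gpx1, G6pdx, Tkt and Sod2, were named after their values were seen. Of 277 antibody features in the graft libraries, only that for the transferrin receptor was read; its counts lay below those of the highest of 9 isotype controls in each lineage, and no result uses them. In all 14 alternatives were planned and 3 were added after seeing the data. Calls were counted over 15 settings, or 14 for monocytes.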

Additional observations from a re-analysis of the deposited data

How the results depend on the processing

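The count of member and lineage pairs at least 2-fold higher at 3 days than at 2 hours was small and depended on the setting. It was 2 of 46 pairs in the main setting, beside 3.86% of all genes. It became 4 with single cells called by markers (with or without upper cell limits) and with doublets left out. The same count of 4 came with carried RNA subtracted (in both versions) and with cells thinned to 500 UMIs. It was 5 for the mean over cells, 9 with CPM + 1, 1 at clustering resolutions of 0.4 and 1.2, and 0 with CPM + 50 or with the members left out of the clustering. The count higher at 2 hours than at 3 days was 11 of 46 pairs, beside 3.23% of all genes. It became 7 with single cells called without upper limits and at resolution 0.4, where no monocytes were named at 2 hours. The count lower at 2 hours than in naive, 1 of 42 pairs beside 16.0% of all genes, became 0 with CPM + 50. The share of all genes under each alternative is not given, so the changed counts have no background beside them. Of the calls higher at 2 hours than in naive, Slc7a11 was under 2-fold or reversed in 6 of 15 settings in T cells. For Slc7a11 in NK cells this held in 3 of 15 and in B cells in 2 of 15. Fth1 was under 2-fold in 2 of 15 in B cells and in 2 of 15 in T cells. Slc7a11 in T cells reversed its sign: its log2 ratio of 3 days to 2 hours became 0.036 and 0.011 with single cells called by markers, with and without upper limits, and 0.76 with carried RNA subtracted, and its ratio of 2 hours to naive became -0.41 with carried RNA subtracted. The cause of the differences between settings was not tested. Ftl1 kept its calls at 2 hours against naive and against 3 days in all 5 lineages under each alternative that gave a value, and so did Fth1 in neutrophils. Fth1 in T cells from 2 hours to 3 days, at -1.09 in log2, was under 2-fold in 11 of 15 settings. In the same comparison Fth1 was under 2-fold in 2 of 14 settings in monocytes, where it reached -0.76. In NK cells this held in 2 of 15 settings, where it reached -0.92. Slc7a11 in T cells was under 2-fold or reversed in 9 of 15. No paired analysis was possible because each condition had 1 library and no test was made. With 1 library per condition, mouse, preparation, depth and condition cannot be told apart. The 2-hour library's median of 878 UMIs limits what single cells show of rare transcripts such as Nqo1. The limit of a lineage sum depends on its total UMIs. In neutrophils 3 counts were 1.335 CPM in naive, 0.86 at 2 hours and 0.28 at 3 days, and in NK cells 0.70, 2.77 and 1.52 CPM.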
